A study of Mus musculus with 16 samples.

Results

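The 8 libraries from the frontonasal prominence (FNP) of mouse embryos at E11.5 came from 2 litters, and the comparison described here is the second litter (FNP-6, FNP-7 and FNP-8) against the first (FNP-1 to FNP-5). They were taken from a series of 16 libraries, the other 8 being the mandibles of the same embryos. The members were chosen by the litter given for each embryo in the authors' deposited design table, and not by any measured value. The series was made to compare conditional mutants of *Srf*, which encodes the transcription factor serum response factor, with controls, so genotype was kept as a covariate throughout. In the first litter FNP-1 was a Srf flox/+; Wnt1-Cre control, FNP-2 a Srf flox/flox control without Cre, and FNP-3, FNP-4 and FNP-5 were Srf flox/flox; Wnt1-Cre mutants. In the second litter FNP-6 was a Srf flox/flox; Wnt1-Cre mutant, FNP-7 a Srf flox/+; Wnt1-Cre control and FNP-8 a Srf flox/+ control without Cre. Every embryo therefore carried at least 1 floxed allele, and the *Wnt1-Cre* transgene deletes *Srf* in neural crest cells, while the ectoderm, blood vessels and blood of the same tissue keep it. Each library is 1 embryo. All embryos carry the same stage label, and neither somite counts nor collection days are given in the sources used here, so litter, stage, and anything done litter by litter cannot be told apart.

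The FNP is made of the medial and lateral nasal processes, a core of neural crest mesenchyme under ectoderm that will form the nose, the middle of the upper lip and the front of the palate. Around this stage the mesenchyme passes from dividing progenitors to the first condensations of cartilage and bone. A conserved timer runs alongside this change. The RNA-binding proteins LIN28A and LIN28B block maturation of the let-7 microRNAs in young tissue, let-7 in turn represses the *Lin28* messages and other genes of early embryos, and as let-7 accumulates the early genes decline. *Nfix* and its relatives, which encode nuclear factor I transcription factors, are known for rising late in many lineages, and *Runx2* encodes the transcription factor that commits mesenchyme to bone.

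The pairing that defines a let-7 target is short, and it is shown here because the genes of the timer are read through it below. The mature let-7 sequences of the mouse (RefSeq, GRCm38.p6) share 1 seed, bases 2 to 8 from the 5′ end, which is in capitals:
let-7a-5p: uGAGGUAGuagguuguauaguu
let-7g-5p: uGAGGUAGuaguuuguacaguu
let-7i-5p: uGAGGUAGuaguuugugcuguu
miR-98-5p: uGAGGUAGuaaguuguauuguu
The complement of that seed, CTACCTC, was searched on the transcript strand of the longest annotated 3′ UTR of each gene (GENCODE vM21, GRCm38). It lies 4 times in that of *Lin28b* (4445 bases) and 2 times in that of *Igdcc3* (538 bases). The first *Lin28b* match and both *Igdcc3* matches, with the match in capitals, were:
*Lin28b*, chr10:45381023-45381029, minus strand: ggcgggaagtCTACCTCatgca
*Igdcc3*, chr9:65185722-65185728, plus strand: ctctcagcacCTACCTCagccg
*Igdcc3*, chr9:65185802-65185808, plus strand: gaaagcactcCTACCTCaagcc
*Igdcc4*, the neighbour and relative of *Igdcc3*, holds 1:
*Igdcc4*, chr9:65136336-65136342, plus strand: aacaacatgaCTACCTCatgtc
Of the 13292 tested genes with an annotated 3′ UTR, 10.8% held at least 1 match. A match is a description of the letters only. The let-7 RNAs themselves were not measured in these libraries, which were made from polyA-selected mRNA.

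The libraries carried the tissue they were labelled with. *Alx1*, which marks frontonasal mesenchyme, stood between 300.2 and 367 TPM in the 8 FNP libraries and between 30.5 and 41.6 TPM in the mandibles, while *Hand2*, which marks the mandible, was at most 1.36 TPM in the FNP and at least 166.5 TPM in the mandible. Per library the gene values summed to between 10230000 and 11190000. Levels are given as TPM, a measure corrected for gene length, as the authors rescaled it between libraries. These values summed to between 978800 and 1069000 in the first litter and between 920900 and 990100 in the second. Differences are given as log2 fold changes of the second litter over the first, fitted with limma on log2(value + 0.5) with genotype as covariate and adjusted over all genes tested. In bulk tissue fewer cells of a type and less RNA per cell cannot be told apart. *Srf* was at 11.8 to 14.7 TPM in the 4 mutants and at 34.7 to 75.2 TPM in the 4 controls, and it did not pass the test between litters (log2 fold change -0.28 ± 0.21 (SE), adjusted p = 0.42). *Ddx3y*, a Y-linked gene, was at 30.6 to 36.9 TPM in FNP-1, FNP-3, FNP-4, FNP-6 and FNP-7 and at 0.027 to 0.106 TPM in FNP-2, FNP-5 and FNP-8, so both litters held embryos of either sex.

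Libraries were first placed without reference to single genes. On the first principal component, with 28.4% of the variance, the second litter lay at 28.1, 20.1 and 16.5, and in the first litter FNP-1, FNP-2, FNP-4 and FNP-5 lay at -22.5, -31.1, -11.3 and -18.2. FNP-3, of the first litter, lay at 18.45, inside the range of the second. The litters differed by 34.5 on this component, which missed the 0.05 threshold in a two-sided exact permutation test (p = 0.071, where the smallest p that 56 arrangements allow is 0.036). Components 2 to 4 did not pass either (exact permutation p = 0.21, 0.93 and 0.68). The place of FNP-3 on the first component depended on scaling. With library totals made equal, the exact permutation test of that component reached the smallest p allowed (0.036). All second-litter libraries then lay above all of the first litter, FNP-3 included. Each library was then placed by the 100 genes that best told the litters apart in the other 7 libraries, after the genotype term. FNP-3 was nearer the second litter for 82 of its 100 genes. Its own litter mates were nearer the second litter for 6 (FNP-1), 17 (FNP-2), 10 (FNP-4) and 10 (FNP-5) genes, and the libraries of the second litter for 42 (FNP-6), 80 (FNP-7) and 85 (FNP-8). By this measure FNP-3 went against its litter label, and FNP-6 was nearer its own litter for fewer than 50 of 100 genes (median position 0.465). The counts of calls are given without each of them. A fitted position over the same 100 genes (0, first litter, and 1, second), in which large changes weigh more, was also computed. It was 0.775 in FNP-3 and 0.576 to 0.583 in the second litter. In FNP-2 it was 0.486, though the median over its genes was 0.0267, and in FNP-1, FNP-4 and FNP-5 it was 0.00778 to 0.107. By this position FNP-2 was not clearly parted from the second litter.

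**Figure D1:**
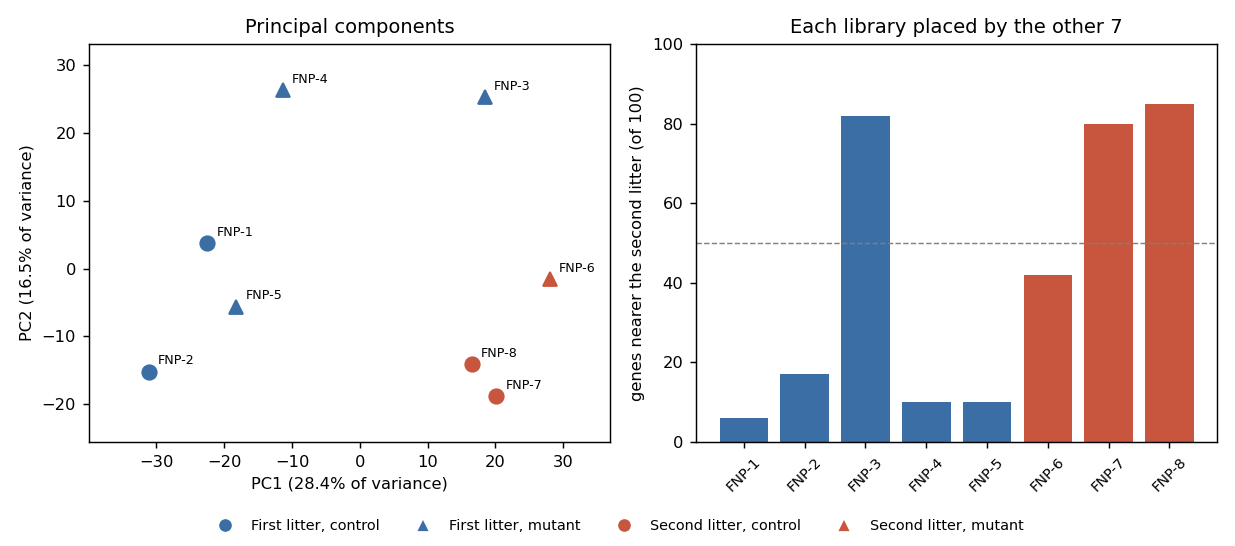
Left, the 8 FNP libraries on principal components 1 and 2 of log2(value + 0.5), coloured by litter, with triangles for mutants. Right, for each library, how many of the 100 genes that best separated the litters in the other 7 libraries lay nearer the second litter (dashed line, 50 genes). With the values as deposited, FNP-3 stands with the second litter on component 1 and at 82 of 100 genes.

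Of 14386 genes tested with limma, 374 (2.6% of those tested) were higher in the second litter and 702 (4.88%) were lower (threshold 0.05 on the adjusted p, Benjamini-Hochberg), and 3924 had an unadjusted p under 0.05. Without FNP-3, 830 (5.77%) were higher and 1020 (7.09%) lower, and all 1076 genes of the first count were among them. The count rested on few libraries. Leaving out FNP-1 left 0 higher and 1 lower, leaving out FNP-2 left 2 and 3, and leaving out FNP-8 left 1 and 2. Without FNP-5 the counts were 62 and 91, without FNP-6 125 and 192, without FNP-7 107 and 249, and without FNP-4 187 and 433, although each of these fits had between 2927 and 3809 genes at an unadjusted p under 0.05 and each of the 1076 genes kept its sign. The share of calls that were higher also moved with scaling, from 34.8% as deposited to 67.9% with library totals made equal and 51.7% with quantile normalization. All values of the second litter lay above all values of the first for 908 genes (6.31%) and below them for 1168 (8.12%).

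The timer gene *Lin28b* (ENSMUSG00000063804.8, chr10:45376620-45486395, minus strand) was lower in the second litter. It stood at 36.8, 32.7, 12.6, 23.0 and 23.8 TPM in FNP-1 to FNP-5 and 11.8, 12.3 and 11.9 TPM in FNP-6 to FNP-8. The highest second-litter embryo was below the lowest of the first, and the embryo nearest to them was FNP-3. The test gave log2 fold change -1.15 ± 0.23 (SE), adjusted p = 0.027, and -1.29 without FNP-3 (adjusted p = 7.99e-04). The call was lost in 5 of the 8 fits that left out 1 library.

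*Igdcc3* (chr9:65141189-65185872, plus strand), which encodes a cell-surface immunoglobulin-domain protein of early embryos, had its lowest value in FNP-3. It stood at 87.2, 119, 17.7, 59.0 and 64.4 TPM in FNP-1 to FNP-5 and 23.2, 23.4 and 24.1 TPM in FNP-6 to FNP-8. The groups overlapped through FNP-3 alone. It missed the threshold with all libraries (log2 fold change -1.56 ± 0.43 (SE), adjusted p = 0.055) and passed it without that embryo, at -1.84 (adjusted p = 7.49e-04).

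*Nfix* (chr8:84699876-84800344, minus strand) showed the reverse order. It stood at 1.99, 0.687, 9.94, 1.31 and 2.02 TPM in FNP-1 to FNP-5 and 7.65, 6.07 and 6.27 TPM in FNP-6 to FNP-8, so that FNP-3 was above the whole second litter and the other first-litter embryos were all below it. It missed the threshold with all libraries (log2 fold change 1.91 ± 0.63 (SE), adjusted p = 0.087) and passed at 2.28 without FNP-3 (adjusted p = 0.0064).

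*Runx2* (chr17:44495987-44814797, minus strand) stood at 2.56, 2.27, 11.3, 3.97 and 4.43 TPM in FNP-1 to FNP-5 and 12.5, 13.0 and 11.2 TPM in FNP-6 to FNP-8. The second litter and FNP-3 were at a like level, and FNP-1, FNP-2, FNP-4 and FNP-5 were well under it. It was called with all libraries (log2 fold change 1.75 ± 0.37 (SE), adjusted p = 0.03) and at 1.98 without FNP-3 (adjusted p = 8.23e-04). In a two-sided exact permutation test of log2(TPM + 0.5) over the 56 arrangements of the embryos, which takes no account of genotype, *Lin28b* reached the smallest p allowed (0.036), *Runx2* gave 0.071, and *Igdcc3* and *Nfix* 0.14 each. These 4 genes were named for this comparison from earlier results of the same libraries. FNP-3 was set apart for its likeness to the second litter in such genes. Leaving it out therefore had to widen the differences of these 4 genes, and the fits without it are no separate evidence. This limit holds for the stage genes below as well.

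**Figure D2:**
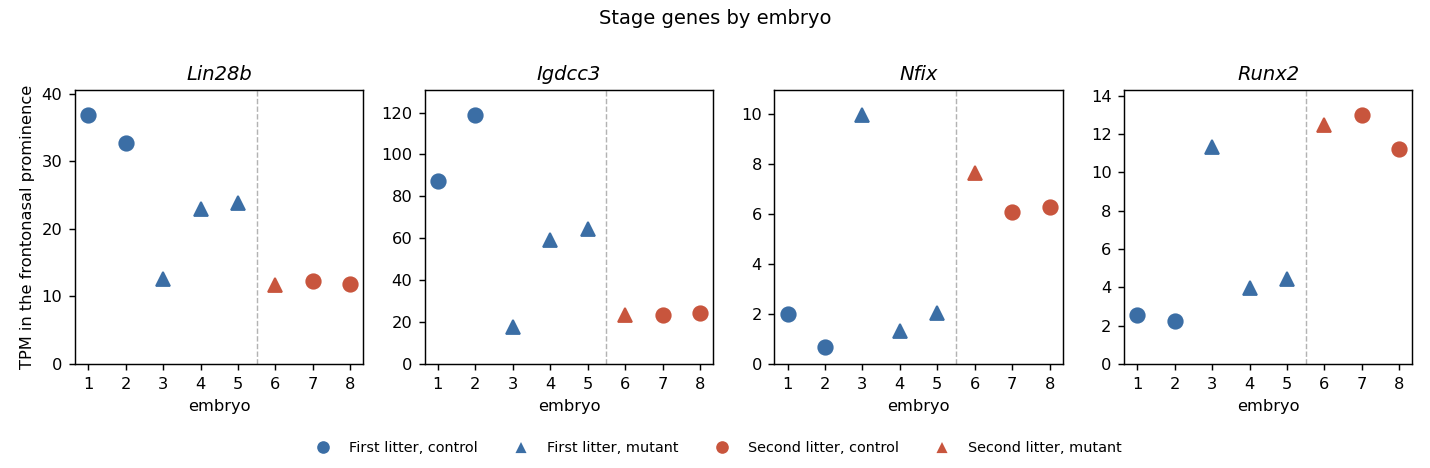
TPM of 4 stage genes in the FNP of each embryo, coloured by litter (dashed line, boundary between litters), with circles for controls and triangles for mutants. In all 4 genes embryo 3 lies nearer embryos 6 to 8 than its litter mates do, at 12.6 TPM against 11.8 to 12.3 TPM for *Lin28b*, and for *Igdcc3* and *Nfix* it lies past them.

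The wider set of timer genes had mostly negative fold changes. Of 22 genes listed for the LIN28 and let-7 pathway, all tested, 3 fell and 1 rose in the second litter, and 18 had a negative fold change, with a median log2 fold change of -0.25 beside -0.02 over all genes tested. Over all genes tested 4.88% fell and 2.6% rose. Without FNP-3 12 fell and 1 rose (median -0.27), beside 7.09% and 5.77% of all genes. No gene of the list was called when FNP-1, FNP-2, FNP-5, FNP-7 or FNP-8 was left out. With all libraries the genes that fell were *Lin28b*, *Hmga1* and *Igf2bp3*, and the last 2 encode a chromatin protein and an mRNA-binding protein of fetal tissue (log2 fold change -0.47 ± 0.11 (SE), adjusted p = 0.04 for *Hmga1*, and log2 fold change -0.27 ± 0.06 (SE), adjusted p = 0.03 for *Igf2bp3*). *Lin28a*, named after its values were seen, stood at 9.06, 8.54, 1.22, 4.03 and 5.79 TPM in FNP-1 to FNP-5 and 1.24, 2.70 and 2.02 TPM in FNP-6 to FNP-8. FNP-3 and FNP-6 were the lowest. It missed the threshold (log2 fold change -1.57 ± 0.50 (SE), adjusted p = 0.081) and was called at -1.83 without FNP-3 (adjusted p = 0.012). *Igdcc4* was the gene that rose, at 13.2, 12.5, 16.1, 13.6 and 14.2 TPM in FNP-1 to FNP-5 and 17.6, 18.8 and 19.5 TPM in FNP-6 to FNP-8, with no overlap between litters (log2 fold change 0.43 ± 0.08 (SE), adjusted p = 0.027). A let-7 match lies in the 3′ UTR of 17 of the 22 genes, a list that was written partly from known let-7 targets and whose UTRs are longer (median 2139.5 bases, against 1236 over the genes searched), so the share is no separate evidence.

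All 4 nuclear factor I genes had a positive fold change (median 0.69). *Nfib* was called, at 13.3, 12.2, 23.6, 16.5 and 14.3 TPM in FNP-1 to FNP-5 and 25.5, 20.0 and 22.6 TPM in FNP-6 to FNP-8 (log2 fold change 0.64 ± 0.15 (SE), adjusted p = 0.038), with FNP-3 again inside the range of the second litter. *Nfia* (0.75, adjusted p = 0.087), *Nfix* and *Nfic* (0.29, adjusted p = 0.15) did not pass the test with all libraries. All 4 had an unadjusted p under 0.05. The call of *Nfib* was lost in 7 of the 8 fits that left out 1 library.

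Some genes of bone formation and of the mesenchymal matrix rose in the second litter. Of 23 osteoblast genes tested of 26 listed, 3 rose, beside 2.6% of all genes. The others did not pass (17 positive and 6 negative fold changes among the 23, median 0.23). Without FNP-3 10 rose and 1 fell, beside 5.77% and 7.09% of all genes. No osteoblast gene was called when FNP-1, FNP-2, FNP-5 or FNP-8 was left out. *Col1a1*, the main collagen of bone, was called at 0.88 (adjusted p = 0.041). *Bmp4*, a ligand that patterns and drives facial growth, was at 0.63 (adjusted p = 0.052) and was called without FNP-3 (0.73 (adjusted p = 0.0036)). *Sp7*, which acts after *Runx2* and is named here after its values were seen, was at 1.04 to 3.06 TPM in the first litter, where the highest was FNP-3, and at 2.55 to 3.07 TPM in the second, and did not pass (log2 fold change 0.88 ± 0.30 (SE), adjusted p = 0.094).

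Of 29 matrix genes tested of 32 listed, 11 rose and 26 had a positive fold change (median 0.40). Over all genes tested 2.6% rose and 4.88% fell. No matrix gene was called when FNP-1, FNP-2 or FNP-8 was left out. *Fn1*, which encodes fibronectin, stood at 136, 135, 148, 170.2 and 156 TPM in FNP-1 to FNP-5 and 202, 207 and 198 TPM in FNP-6 to FNP-8. All 3 second-litter embryos were above all 5 of the first, FNP-3 included (log2 fold change 0.46 ± 0.06 (SE), adjusted p = 0.021). The collagen VI genes moved by more. *Col6a1* stood at 4.17, 4.44, 9.69, 5.71 and 5.14 TPM in FNP-1 to FNP-5 and 12.5, 13.6 and 12.2 TPM in FNP-6 to FNP-8 (log2 fold change 1.27 ± 0.21 (SE), adjusted p = 0.024), and *Col6a3* rose by a log2 fold change of 1.09 (adjusted p = 0.03). *Mfap4*, a microfibril protein gene, rose by 0.44 on the log2 scale (adjusted p = 0.021). Cartilage genes were mixed. Of 14 tested, *Sox6* (0.59, adjusted p = 0.042) and *Col27a1* (0.46, adjusted p = 0.046) rose, while *Hapln1*, which links hyaluronan to proteoglycan, fell, at 15.3, 16.0, 8.02, 14.1 and 12.5 TPM in FNP-1 to FNP-5 and 6.43, 7.59 and 8.24 TPM in FNP-6 to FNP-8 (log2 fold change -0.90 ± 0.16 (SE), adjusted p = 0.024). *Col2a1*, the main collagen of cartilage, was at -0.43 (adjusted p = 0.066).

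The 10 largest rises among called genes with a mean of at least 1 TPM were *Pax1*, *Col8a1*, *Ntrk2*, *Cpxm2*, *Gdf7*, *Hey2*, *Runx2*, *Inhba*, *Txnip* and *Postn*, with log2 fold changes of 1.37 to 3.10. *Pax1*, a paired-box factor of skeletal condensations, stood at 0.401, 0.439, 10.8, 0.952 and 1.67 TPM in FNP-1 to FNP-5 and 8.61, 9.71 and 7.64 TPM in FNP-6 to FNP-8 (log2 fold change 3.10 ± 0.76 (SE), adjusted p = 0.042). The first litter was low apart from FNP-3, which was higher than any second-litter embryo. *Col8a1*, a short-chain collagen gene, stood at 0.276, 0.322, 3.81, 0.607 and 0.613 TPM in FNP-1 to FNP-5 and 4.61, 3.66 and 3.997 TPM in FNP-6 to FNP-8 (log2 fold change 2.93 ± 0.60 (SE), adjusted p = 0.03), with FNP-3 inside the second-litter range. *Ntrk2*, the receptor of brain-derived neurotrophic factor, stood at 0.786, 0.855, 3.55, 1.07 and 0.914 TPM in FNP-1 to FNP-5 and 5.98, 3.95 and 5.93 TPM in FNP-6 to FNP-8 (log2 fold change 2.28 ± 0.41 (SE), adjusted p = 0.024), and here FNP-3 was below all 3 second-litter embryos. *Gdf7* (2.05) and *Inhba* (1.58) encode ligands of the TGF-beta superfamily, *Hey2* (1.82) a Notch target repressor and *Postn* (1.37) the matrix protein periostin. The calls of *Pax1*, *Cpxm2*, *Gdf7*, *Hey2* and *Postn* were lost in 7 of the 8 fits that left out 1 library, those of *Runx2*, *Col8a1* and *Inhba* in 6, that of *Ntrk2* in 5 and that of *Txnip* in 4, while the sign held in each.

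The 10 largest falls were *Foxi2*, *H2ac4*, *Arrdc3*, *Adm*, *Sstr4*, *Zbtb16*, *Ccdc160*, *Ier3*, *Bhlhe40* and *Cldn10*, with log2 fold changes of -2.33 to -1.34. *Foxi2*, a forkhead factor of the ectoderm, stood at 1.91, 3.05, 0.607, 1.34 and 1.45 TPM in FNP-1 to FNP-5 and 0.246, 0.51 and 0.319 TPM in FNP-6 to FNP-8 (log2 fold change -2.33 ± 0.35 (SE), adjusted p = 0.021). *Zbtb16*, a zinc-finger repressor of progenitors, stood at 9.53, 10.2, 3.23, 8.71 and 8.21 TPM in FNP-1 to FNP-5 and 2.52, 3.30 and 3.29 TPM in FNP-6 to FNP-8 (log2 fold change -1.48 ± 0.29 (SE), adjusted p = 0.027), with FNP-3 at the second-litter level. *Arrdc3*, an arrestin-domain gene, behaved otherwise. It stood at 100.1, 60.0, 112, 114 and 79.2 TPM in FNP-1 to FNP-5 and 21.1, 26.3 and 29.5 TPM in FNP-6 to FNP-8, so that each second-litter embryo was below each of the first and FNP-3 was among the highest (log2 fold change -1.80 ± 0.22 (SE), adjusted p = 0.021). *H2ac4* is a replication-dependent histone gene, whose message lacks a polyA tail and is measured poorly after polyA selection. It stood at 12.4, 12.1, 7.47, 12.8 and 8.61 TPM in FNP-1 to FNP-5 and 0.806, 5.91 and 7.53 TPM in FNP-6 to FNP-8, lowest in FNP-6, and its log2 fold change was -1.90 with all libraries and -0.87 without FNP-6. The calls of *H2ac4* and *Adm* were lost in 7 of the 8 fits that left out 1 library, those of *Sstr4*, *Zbtb16* and *Bhlhe40* in 6, that of *Ier3* in 5, that of *Ccdc160* in 4, those of *Foxi2* and *Cldn10* in 3 and that of *Arrdc3* in 2.

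Among called genes the smallest p-values included genes in which FNP-3 was not set apart from its litter. The fit counted FNP-3 in the first litter, so small p-values favour such genes. Their place in the ranking is therefore no evidence about FNP-3. *Pkd2*, which encodes the polycystin-2 cation channel, stood at 27.0, 28.0, 29.6, 28.6 and 28.3 TPM in FNP-1 to FNP-5 and 40.3, 39.1 and 40.9 TPM in FNP-6 to FNP-8 (log2 fold change 0.53 ± 0.05 (SE), adjusted p = 0.006). The 5 first-litter embryos lay close together and all 3 of the second litter lay above them. *Odc1*, the rate-limiting enzyme of polyamine synthesis, stood at 375, 368, 349.8, 363 and 333 TPM in FNP-1 to FNP-5 and 256, 272 and 242 TPM in FNP-6 to FNP-8 (log2 fold change -0.50 ± 0.06 (SE), adjusted p = 0.021). *Slc3a2*, a subunit of amino-acid transporters, fell by 0.55 on the log2 scale and *Dusp6*, a phosphatase induced by ERK signalling, fell by 0.68 (adjusted p = 0.021 and 0.021). In *Dusp6* FNP-3 was nearer the second litter. It stood at 126.1 TPM, its litter mates at 156.3 to 172.2 TPM and the second litter at 99.65 to 103 TPM. *Sinhcaf* (-0.45) and the helicase gene *Ddx39* (-0.44) also fell. *Sned1* (1.01), the Wnt cofactor gene *Bcl9l* (0.60), *Etnk1* (0.34), *Zfc3h1* (0.79) and the netrin receptor gene *Unc5c* (0.85) rose. For *Unc5c* FNP-3 lay between the groups, at 13.34 TPM. Its litter mates were at 7.652 to 10.55 TPM and the second litter at 16.25 to 17.92 TPM. *Txnip*, a glucose-responsive arrestin, stood at 16.4, 21.3, 8.85, 8.56 and 19.1 TPM in FNP-1 to FNP-5 and 43.5, 39.5 and 40.9 TPM in FNP-6 to FNP-8. The mutants FNP-3 and FNP-4 were the lowest and all second-litter embryos were higher than every embryo of the first (log2 fold change 1.45 ± 0.29 (SE), adjusted p = 0.028).

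**Figure D3:**
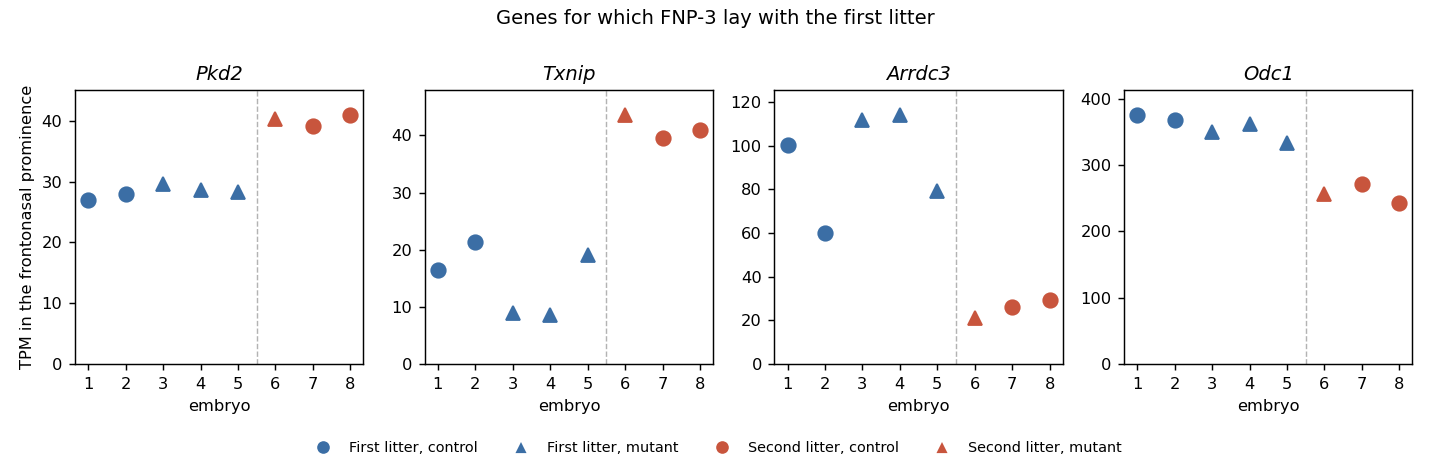
TPM of 4 genes in the FNP of each embryo, coloured by litter (dashed line, boundary between litters), with circles for controls and triangles for mutants. The 4 were picked as genes in which embryo 3 lies with the other first-litter embryos, as for *Pkd2* at 29.6 TPM against 39.1 to 40.9 TPM in the second litter.

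Part of the genes of growth and division fell in the second litter, where 4.88% of all genes fell. Of 31 S phase genes, all tested, 14 fell and 30 had a negative fold change (median -0.24). Of 30 mitosis genes 16 fell and all 30 had a negative fold change (median -0.21). *Rrm2*, a subunit of the enzyme that makes deoxyribonucleotides, stood at 332, 352, 271, 285 and 305 TPM in FNP-1 to FNP-5 and 234, 262 and 241 TPM in FNP-6 to FNP-8 (log2 fold change -0.39 ± 0.06 (SE), adjusted p = 0.021). *Mcm3* and *Mcm7*, of the replicative helicase, fell by 0.29 and 0.29 on the log2 scale (adjusted p = 0.026 and 0.027). *Cdk1*, the kinase of mitotic entry, stood at 364, 359, 342, 320.0 and 345 TPM in FNP-1 to FNP-5 and 273, 293 and 269 TPM in FNP-6 to FNP-8 (log2 fold change -0.34 ± 0.05 (SE), adjusted p = 0.021), and every embryo of the second litter was below every embryo of the first. *Cdc20*, an activator of the anaphase-promoting complex, fell by 0.33 (adjusted p = 0.021). Of 79 genes of the cytosolic ribosome 63 fell, and all 79 had a negative fold change (median -0.27). *Rpl38* stood at 1629, 1822, 1304, 1428 and 1384 TPM in FNP-1 to FNP-5 and 1057, 1329 and 1209 TPM in FNP-6 to FNP-8 (log2 fold change -0.43 ± 0.06 (SE), adjusted p = 0.021), with FNP-7 overlapping the first litter. Ribosomal protein genes have many processed pseudogenes that can share their reads, so single members are uncertain, and *Rps13* stood at 633.5 to 809.6 TPM in FNP-1 to FNP-3 and 64.6 to 80.7 TPM in the other 5 libraries. These counts depended on scaling. With equal library totals 6 S phase, 8 mitosis and 39 ribosomal genes fell, and with quantile normalization 6, 6 and 16, with medians between -0.20 and -0.14. Left without FNP-1, FNP-2 or FNP-8, none of these lists had a gene called, while 23, 22 and 78 of their genes had an unadjusted p under 0.05 with all libraries.

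Some glycolysis and immediate early genes fell as well, beside 4.88% of all genes. Of 29 hypoxia and glycolysis genes tested 8 fell, with 21 negative and 8 positive fold changes (median -0.19), among them *Eno1*, at 518, 589.5, 482, 549 and 468 TPM in FNP-1 to FNP-5 and 391, 377 and 352 TPM in FNP-6 to FNP-8 (log2 fold change -0.51 ± 0.08 (SE), adjusted p = 0.021), and *Gapdh* (-0.35, adjusted p = 0.029). Of 20 immediate early genes tested 7 fell (median -0.45). Without FNP-3 8 fell and 2 rose, beside 7.09% and 5.77% of all genes. *Junb*, a subunit of the AP-1 factor, stood at 8.70, 7.86, 10.5, 10.97 and 8.77 TPM in FNP-1 to FNP-5 and 5.87, 4.46 and 3.37 TPM in FNP-6 to FNP-8, with no overlap between litters (log2 fold change -0.97 ± 0.14 (SE), adjusted p = 0.021), and *Ier2* fell by 0.66 (adjusted p = 0.028). Both lists had no gene called without FNP-1, FNP-2 or FNP-8. The 13 mitochondrially encoded genes, a rough sign of RNA composition, had a median of 0.21 and none was called by limma (5 with an unadjusted p under 0.05, all higher).

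**Figure D4:**
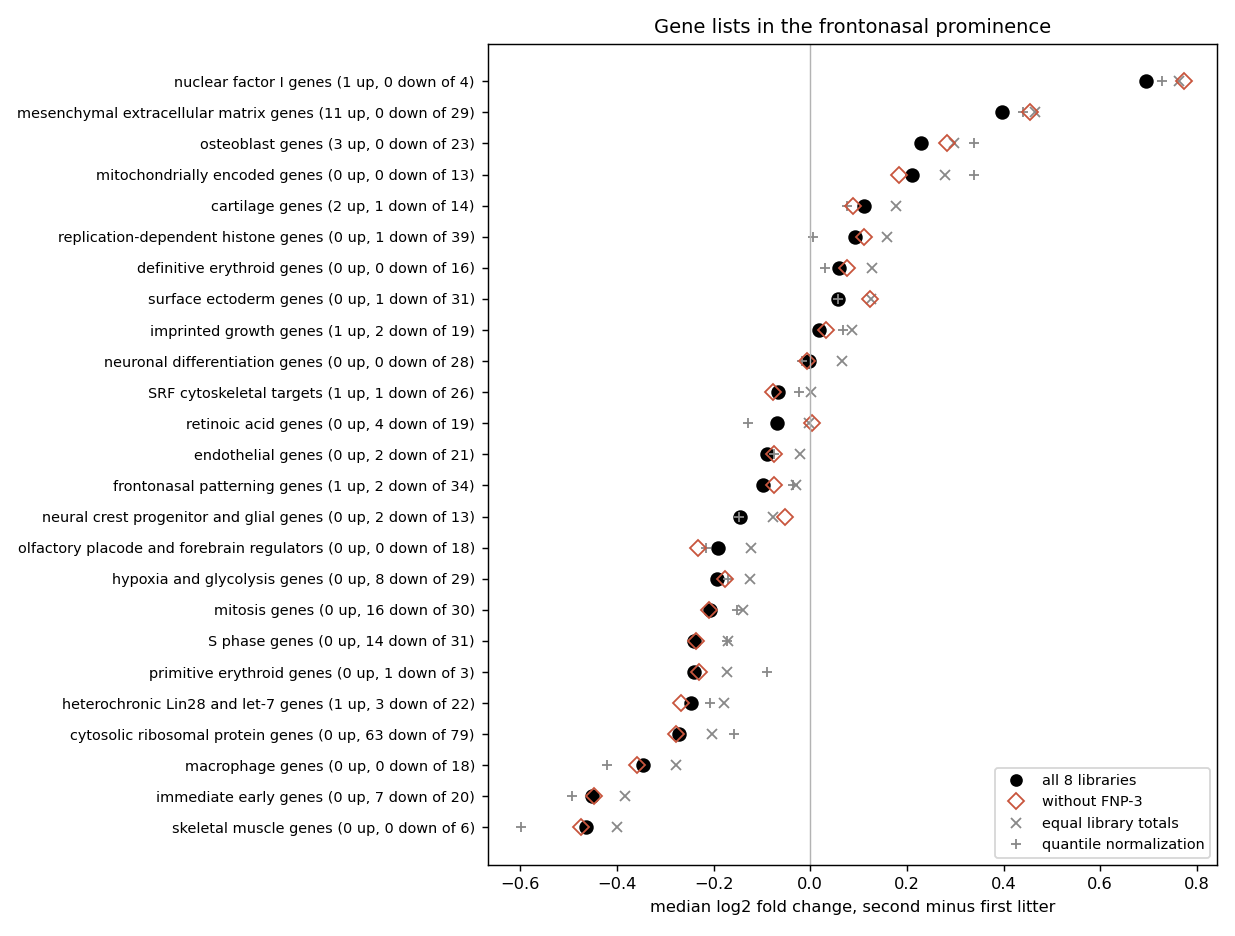
Median log2 fold change, second minus first litter, of each gene list with all 8 libraries (black), without FNP-3 (red diamonds), with equal library totals (crosses) and with quantile normalization (plus signs). The names give how many tested genes passed the test in each direction. Matrix genes (median 0.40) and ribosomal protein genes (median -0.27) keep their sign in all 4.

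FNP-3 was next placed gene by gene. In the 1850 genes called from the other 7 libraries its position was computed between the first-litter level (0) and the second-litter level (1) expected for a mutant, so FNP-3 did not enter the fit that called the genes, though it did enter the filter on low values. It was nearer the second litter for 765 genes (41.4%) and nearer the first for 1085. Among genes higher in the second litter the share was 60.5%, and among genes lower in it 25.8%. The lists differed. FNP-3 was nearer the second litter in 12 of 13 timer genes (median position 1), 10 of 11 osteoblast genes (0.99), 5 of 6 retinoic acid genes (0.74), 10 of 15 matrix genes (0.67) and 6 of 8 surface ectoderm genes (1.04). It was nearer the first litter in 66 of 68 ribosomal protein genes (median position 0.11), 16 of 17 mitosis genes (-0.00392), 14 of 16 S phase genes (0.31) and 10 of 10 hypoxia and glycolysis genes (-0.01). Immediate early genes split 5 and 5. FNP-3 was thus mostly nearer the second litter in stage and bone genes and mostly nearer its own in growth genes. These are positions of 1 library, given with no test. FNP-3 had been singled out for its likeness to the second litter in stage genes. Its place in the timer and bone genes partly repeats that choice and is no separate evidence.

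**Figure D5:**
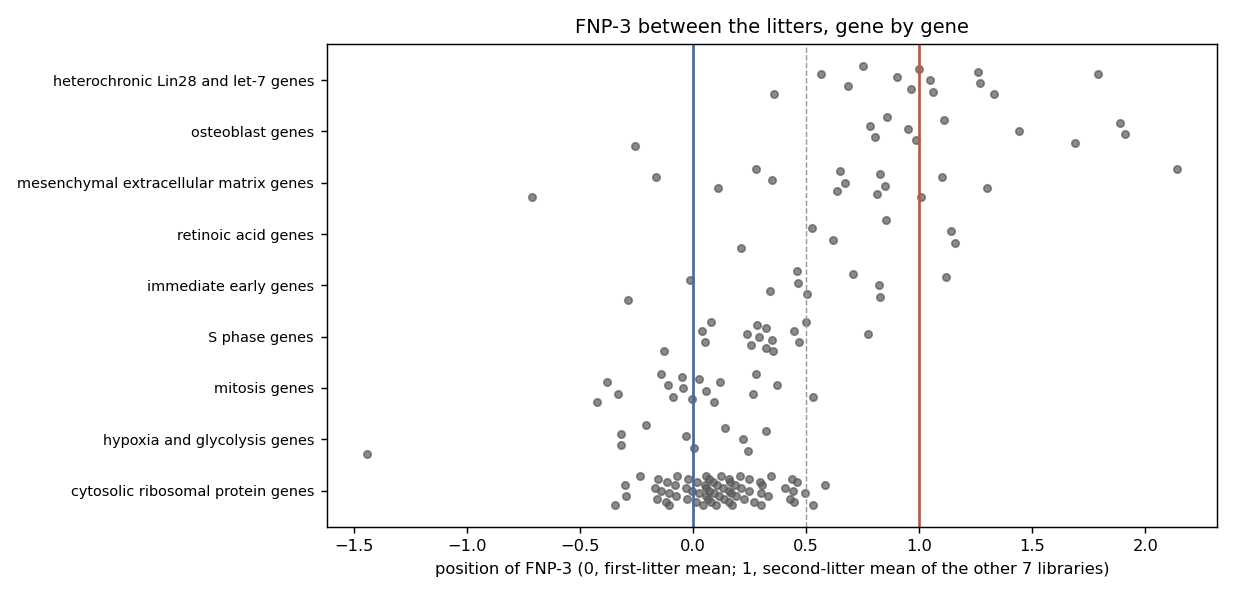
Position of FNP-3 between the first litter (blue line, 0) and the second (red line, 1) for each gene called from the other 7 libraries, by gene list (dashed line, 0.5). Timer and osteoblast genes gather near 1, and mitosis, glycolysis and ribosomal protein genes near 0.

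Of 34 patterning genes of the FNP tested, 1 rose and 2 fell (median -0.10), beside 2.6% and 4.88% of all genes, and without FNP-3 5 rose and 4 fell, beside 5.77% and 7.09%. *Pax9*, needed for palate and teeth, stood at 28.0, 26.8, 51.3, 41.5 and 37.7 TPM in FNP-1 to FNP-5 and 54.4, 52.4 and 44.4 TPM in FNP-6 to FNP-8 (log2 fold change 0.60 ± 0.13 (SE), adjusted p = 0.03). *Tbx3*, a T-box repressor, fell by 0.37 on the log2 scale (adjusted p = 0.032). *Foxc2*, a forkhead factor of mesenchyme, was at 22.7 to 36.2 TPM in the first litter and at 11.9, 5.09 and 19.2 TPM in the second, with no overlap, and it just missed the threshold (log2 fold change -1.39 ± 0.36 (SE), adjusted p = 0.05). Of 19 retinoic acid genes tested, 4 fell and none rose, with 8 positive and 11 negative log2 fold changes (-0.80 to 1.69). Without FNP-3 4 of them fell and 2 rose, beside 7.09% and 5.77% of all genes. *Crabp1*, a retinoic acid-binding protein gene of facial mesenchyme, stood at 2898, 3270, 1416, 2406 and 2659 TPM in FNP-1 to FNP-5 and 1212, 2083 and 1548 TPM in FNP-6 to FNP-8 (log2 fold change -0.80 ± 0.19 (SE), adjusted p = 0.041), *Crabp2* fell by 0.42, and the receptor gene *Rarb* fell by 0.38 (adjusted p = 0.036 and 0.041). The sign of this list's median was not stable, at -0.07 with all libraries and 0.00 without FNP-3.

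Of 13 neural crest and glial genes tested, *Snai1*, a repressor of epithelial genes (-0.61, adjusted p = 0.042), and *Ngfr*, a neurotrophin receptor (-0.48, adjusted p = 0.047), fell. Among 19 imprinted genes *Plagl1*, a zinc-finger regulator of the imprinted network, rose (log2 fold change 0.53 ± 0.10 (SE), adjusted p = 0.024) and *Mest* and *Snrpn* fell (-0.43 and -0.46, adjusted p = 0.036 and 0.023). Of 26 cytoskeletal targets of SRF, *Filip1l* rose (1.02, adjusted p = 0.039) and *Actg1* fell (-0.21, adjusted p = 0.042), while the level of the latter followed genotype, from 1099 to 1238 TPM in mutants and from 2683 to 3292 TPM in controls. Over all genes tested 2.6% rose and 4.88% fell. The few calls in the lists of this paragraph are given gene by gene and not as results about the lists.

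The other cell types of the sample were read from lists of their genes. No gene of the 28 neuronal and 18 placode and forebrain genes tested was called by limma (at an unadjusted p under 0.05, 1 neuronal gene was higher and 1 lower, and 2 placode and forebrain genes were higher and 4 lower), and the neuronal list summed to 366 to 466 TPM in the first litter and 314 to 497 TPM in the second. Of 31 surface ectoderm genes 1 fell (median 0.06), beside 4.88% of all genes. Without FNP-3 7 rose and 1 fell (median 0.12), beside 5.77% and 7.09% of all genes. Of 21 endothelial genes *Sox18* and *Tek* fell (-0.42 and -0.37, adjusted p = 0.029 and 0.035), and 4 fell without FNP-3, beside 4.88% and 7.09% of all genes. *Tek* was 1 of 4 marker genes set for endothelium, and the other markers *Pecam1*, *Cdh5* and *Kdr* did not pass. *Cdh5* stood at 31.2 to 38.2 TPM in the first litter and 31.1 to 37.3 TPM in the second. Macrophage genes had a median of -0.35 with 17 of 18 negative, none was called by limma (3 with an unadjusted p under 0.05), and the list summed to 65.7 to 73.05 TPM in the first litter and 51.3 to 63.5 TPM in the second. Muscle genes were scarce, with the defining genes *Myod1* and *Myog* at no more than 0.544 TPM.

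Globin genes were read apart from the other lists. As background, primitive red cells from the yolk sac switch their embryonic globins as they mature, and definitive cells from the liver follow. Of 3 embryonic genes *Hbb-bh1*, which is expressed first, fell, at 2471, 2771, 2744, 3254 and 4565 TPM in FNP-1 to FNP-5 and 1796, 2048 and 1604 TPM in FNP-6 to FNP-8 (log2 fold change -0.72 ± 0.16 (SE), adjusted p = 0.036), and *Hbb-y* and *Hba-x* did not pass (-0.05 and -0.24). The adult genes *Hbb-bs* and *Hbb-bt* had positive fold changes and missed the threshold (1.08 and 1.17, adjusted p = 0.11 and 0.11). *Hbb-bs* stood at 135, 128, 529, 219 and 258 TPM in FNP-1 to FNP-5 and 333, 588 and 371 TPM in FNP-6 to FNP-8. FNP-3 was again at the level of the second litter, and both adult genes were called without it (1.28 (adjusted p = 0.019) and 1.36 (adjusted p = 0.032)). The 5 red cell marker genes summed to 11270 to 22740 TPM in the first litter and to 12210 to 13840 TPM in the second, so the amount of blood overlapped between litters.

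The mandibles of the same embryos gave a further reading of the litters, though not an independent one. There 182 genes (1.27%) were higher in the second litter and 377 (2.62%) lower. *Lin28b* stood at 28.6, 29.1, 10.2, 21.2 and 19.4 TPM in the first litter and 10.5, 10.3 and 9.23 TPM in the second (log2 fold change -1.13, adjusted p = 0.049), and *Nfix* at 1.71, 1.39, 16.6, 2.87 and 3.57 TPM in the first litter and 16.1, 14.9 and 12.8 TPM in the second (2.43, adjusted p = 0.049). *Runx2* (1.35, adjusted p = 0.070) and *Igdcc3* (-1.44, adjusted p = 0.073) did not pass there. Embryo 3 was again nearer the second litter than its litter mates were in all 4 genes. The litter difference was compared between tissues in a model of all 16 libraries. No gene (0%) was called, with limma, in the model without embryo as a block (773 with an unadjusted p under 0.05) and none (0%) in the paired model with it (1069). Without embryo 3 there were 61 (0.424%) and, in the paired model, 26 (0.181%). Among the 26 were *Ntrk2*, *Gap43*, *Unc5c*, *Zbtb16*, *Col8a1*, *Ngfr* and *Dlk1*. The log2 fold change of *Ntrk2* was 2.54 in FNP libraries and -0.92 in mandibles (adjusted p of the difference 6.60e-04), *Gap43*, a growth cone gene, 0.55 and -0.96 (0.0016), and *Col8a1* 3.33 and 0.57 (0.029).

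The litter difference was also compared between mutants and controls. The test called 3 genes (0.0209%), *Gm10163*, *Gm28551* and *Rpl30-ps9*, of which the first and last are at 0 TPM in FNP-6 and at 53.6 to 88.9 and 74.1 to 334 TPM in the other 7 libraries. FNP-6 is the only mutant of the second litter, so these calls rest on 1 library. Among the stage genes, *Lin28b* had a log2 fold change of -1.51 in controls and -0.68 in mutants and *Runx2* of 2.28 and 1.05, differences that did not pass (adjusted p = 0.98 for both), and the mutants of the first litter include FNP-3.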

How the data were processed

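RNA from the FNP and mandible of 8 embryos was polyA-selected and sequenced. The authors quantified reads with Salmon 1.5.0 and deposited gene values normalized in sleuth 0.30.0-4, used here as signal values that are not raw counts (15451 genes, mm10), and a table of TPM per gene, rescaled between libraries (35639 genes, also deposited by the authors). The reads behind a value are unknown, so no counting interval is given. The deposited tables of genotype comparisons (fold changes, p and q values) were not used. Litter came from the deposited design table.

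A gene was kept if 3 or more FNP libraries reached a value of 10, which left 14386. The test was that of limma 3.58.1 (R 4.3.3) on log2(value + 0.5), with litter and genotype (mutant or control) as terms, a variance trend and Benjamini-Hochberg adjustment (threshold 0.05). The procedure was tested on simulated data. Named genes were the 10 largest and 6 smallest-p calls in each direction with a mean of at least 1 TPM, 4 per list, and the 4 stage genes. Some genes that this rule names are not reported here. The members and lists were chosen with earlier results of these data known. Litter mates are separate embryos. FNP and mandible with 1 number come from the same embryo, so tissues were compared with embryo as a block as well (the correlation of deviations was 0.0957 to 0.235 within embryos, and the highest with another embryo, 0.0925 to 0.217, was larger for embryos 2, 4 and 6). Alternatives changed scaling, pseudocount, filter, covariates and libraries. Figures were drawn with matplotlib 3.10.9.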

Additional observations from a re-analysis of the deposited data

Results flagged for a closer look

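In the first litter of 5 embryos, 19 of 132 named genes had 1 embryo far from the other 4 by Dixon's test, where chance flags about 1 in 20 groups. These genes were chosen for their litter change or for their list, they move together, and FNP-3 had been singled out from earlier results, so the number is a description and no test. At FNP-3 there were 16 of them. Their TPM there were 9.94 for *Nfix*, 11.3 for *Runx2*, 10.8 for *Pax1*, 3.8 for *Col8a1*, 3.55 for *Ntrk2*, 18.3 for *Cpxm2*, 9.45 for *Gdf7* and 4.74 for *Hey2*. They were 3.23 for *Zbtb16*, 51.6 for *Col1a1*, 9.68 for *Col6a1*, 14.2 for *Sox8*, 99.4 for *Gap43*, 28.4 for *Krt5*, 1.85 for *Des* and 18.2 for *Filip1l*. The other 3 were *Itga4* in FNP-2 (5.92 TPM), *Hes5* in FNP-1 (15.1 TPM) and *H2bc6* in FNP-4 (1.12 TPM).

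The test of the litter difference between mutants and controls called 3 genes, but FNP-6 is the only mutant of the second litter, so the calls rest on 1 library. The difference was a log2 value of -8.17 for *Gm10163*, -4.39 for *Gm28551* and -8.91 for *Rpl30-ps9*, each lowest in FNP-6.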

How the results depend on the processing

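Counts of genes higher and lower in the second litter were 374 and 702. They were 5 and 3 with no genotype term, 1 and 5 with genotype at 4 levels, 222 and 134 in controls only, 0 and 3 in mutants only (limma, 1118 with an unadjusted p under 0.05, where FNP-6 is alone and assumed to vary like the others), 733 and 346 with equal library totals, 404 and 378 with quantile normalization, and 1 and 2 with no variance trend. Leaving out 1 library gave 0 to 830 higher and 1 to 1020 lower. Among alternatives chosen after seeing the data, a *Ddx3y* covariate gave 108 and 166 and the embryos with Wnt1-Cre 1 and 5. A covariate from *Xist* was not run, since that gene is not among the values used here. Other pseudocounts, filters and TPM kept both counts within 1.5 times. The cause of these shifts was not tested. The first component differed by 35.42 with equal totals (exact permutation p = 0.036).

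With embryo as the replicate block, the litter by tissue count was 0 (limma, 1069 with an unadjusted p under 0.05). Without replicate 3 it was 61, and 26 with the replicate block, the last chosen after seeing the data. The litter by genotype count was 5 without replicate 3.

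Signs turned for these log2 fold changes, none of them called except *Actg1*. With no genotype term *Srf* was 0.26, *Actg1* 0.17 and *Cnn2* 0.26. In controls only *Hba-a1* was 0.37, *Hba-x* 0.10 and *Hbb-y* 0.32. In mutants only *Hba-a2* was -0.44, *Hbb-bt* -0.0808, *Nefl* 0.27, *Sox2* 0.0187 and *Tnnt1* 0.11, and the medians of neural crest and retinoic acid genes were 0.0217 and 0.0242. With equal totals *Hba-a1* was 0.0639 and *Hbb-y* 0.0168, with quantile normalization 0.0944 and 0.114, and *Hba-a1* was 0.0185 with the *Ddx3y* covariate and 0.0182 with TPM. Lists whose median with all libraries was smaller than 1 SD between libraries turned sign too. In mutants only those of placode and forebrain, neuronal and SRF target genes were 0.17, 0.28 and 0.02 and that of definitive erythroid genes was -0.44. With no genotype term SRF targets were at 0.13 and definitive erythroid genes at -0.05, with genotype at 4 levels cartilage genes were at -0.01 and definitive erythroid genes at -0.03, and in controls only primitive erythroid genes were at 0.10. Medians also turned when 1 library was left out. Neuronal genes were at 0.10 without FNP-1 and 0.25 without FNP-7, and placode and forebrain genes at 0.03 without FNP-7. Cartilage genes were at -0.01 without FNP-8 and primitive erythroid genes at 0.10 without FNP-6. Definitive erythroid genes were at -0.04 without FNP-1, -0.04 without FNP-2 and -0.09 without FNP-7. Leaving out 1 library gave ranges of -0.43 to 4.03 for *Ddx3y*, -0.14 to 0.37 for *Hba-a1*, -0.0231 to 0.605 for *Hba-a2*, -0.35 to 0.10 for *Hba-x*, -0.18 to 0.32 for *Hbb-y* and -0.0962 to 0.00361 for the median of retinoic acid genes.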
